A study of Homo sapiens with 8 samples.

Results

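Of the 2006 human miRNAs on the array, 7 are tied by earlier work to the estrogen receptor and were chosen for that reason: hsa-miR-221-3p, hsa-miR-222-3p, hsa-miR-342-3p, hsa-miR-342-5p, hsa-miR-375, hsa-miR-190b and hsa-miR-135b-5p. They were measured in BT474 and SKBR3, a pair of human breast cancer cell lines that both carry extra HER2. The labels give BT474 as estrogen receptor positive and SKBR3 as negative. For the progesterone receptor of SKBR3 the labels and the study's methods differ (positive in the labels, negative in the methods). Cells received 6 µg/mL trastuzumab, an antibody against HER2, or PBS as control for 144 h, with 2 biological replicates per group. The lines were grown in different media, that of BT474 with added bovine insulin, so that line and medium cannot be told apart. The array holds no mRNA probes, and the receptor status of the cells was not measured here.

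The series labels 8 arrays, but the file labelled SKBR3 PBS replicate 1 is a copy of BT474 PBS replicate 1, and only the 7 distinct arrays were compared, 4 of BT474 and 3 of SKBR3. SKBR3 PBS is therefore 1 array. All lie on 1 slide read in 1 scan, with PBS arrays in row 2 and trastuzumab arrays in row 1, and with BT474 in columns 1 and 2 and SKBR3 in columns 3 and 4. Slide position and group cannot be told apart. Between 247 and 256 miRNAs were detected per BT474 array and between 201 and 218 per SKBR3 array. Of 4 epithelial miRNAs, hsa-miR-141-3p and hsa-miR-200c-3p were detected on every distinct array. The others, hsa-miR-200b-3p and hsa-miR-429, were detected on all BT474 arrays and on no SKBR3 array. Of 8 markers of other cell types, 5 were detected on none (hsa-miR-142-3p, hsa-miR-223-3p, hsa-miR-143-3p, hsa-miR-122-5p and hsa-miR-124-3p). The summed level of all 8 was 111 to 179 on the BT474 PBS arrays, 285 to 416 on the BT474 trastuzumab arrays and 0 on the SKBR3 arrays, most of it from hsa-miR-205-5p of basal epithelium.

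The estrogen receptor alpha, the product of ESR1, is a hormone-activated transcription factor that drives the growth of luminal breast tumours. miRNAs are short RNAs that pair through their seed with messenger RNAs and lower their output. Some miRNAs act on the ESR1 message itself, and others are transcribed at higher levels in tumours that carry the receptor. miR-221 and miR-222 are known to repress ESR1 and the cell cycle inhibitor CDKN1B, and are high in many receptor-negative lines. miR-342, miR-375 and miR-190b are known as miRNAs of receptor-positive tumours, and miR-135b as a miRNA of receptor-negative ones.

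The mature sequences are shown because the seeds tell which of the 7 belong to 1 family. They are RefSeq entries on GRCh38.p14, found for all 7, written 5′ to 3′ with the seed, bases 2 to 8, in capitals. The names hsa-miR-375 and hsa-miR-190b on the array correspond to miR-375-3p and miR-190b-5p there. The first pair shares a seed, and each of the others has a seed of its own within the set.
hsa-miR-221-3p: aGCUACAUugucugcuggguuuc
hsa-miR-222-3p: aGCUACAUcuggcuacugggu
hsa-miR-342-3p: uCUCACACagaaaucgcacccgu
hsa-miR-342-5p: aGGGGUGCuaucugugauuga
hsa-miR-375: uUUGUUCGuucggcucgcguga
hsa-miR-190b: uGAUAUGUuugauauuggguug
hsa-miR-135b-5p: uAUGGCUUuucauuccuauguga

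miR-221-3p and miR-222-3p are identical over their first 8 bases and at 11 of 21 positions when aligned from the 5′ end. They come from chrX:45746180-45746202 and chrX:45747036-45747056 on the minus strand, from hairpins 748 bases apart, both inside the interval of the long non-coding RNA gene MIR222HG. Both arms of miR-342 come from 1 hairpin on the plus strand, at chr14:100109673-100109693 for the 5p arm and chr14:100109715-100109737 for the 3p arm, inside the interval of EVL, a gene of actin dynamics. miR-375 lies at chr2:219001648-219001669 on the minus strand and miR-190b at chr1:154193712-154193733 on the minus strand, and no other gene of the table encloses either hairpin. miR-135b-5p lies at chr1:205448361-205448383 on the minus strand, inside the intervals of LEMD1 and BLACAT1.

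Of the 7 miRNAs, 3 were detected and 4 were not. Detection is the flag that the scanner software gave each miRNA from its 30 spots, and it writes 0.1 as the summed signal of a miRNA that it did not detect. miR-342-3p was detected on all 7 arrays. miR-342-5p and miR-375 were detected on 4 of 4 BT474 arrays and on 0 of 3 SKBR3 arrays. miR-221-3p, miR-222-3p, miR-190b and miR-135b-5p were detected on none. Of all 2006 miRNAs, 1699 (84.7%) were likewise detected on none of the arrays.

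**Figure D1:**
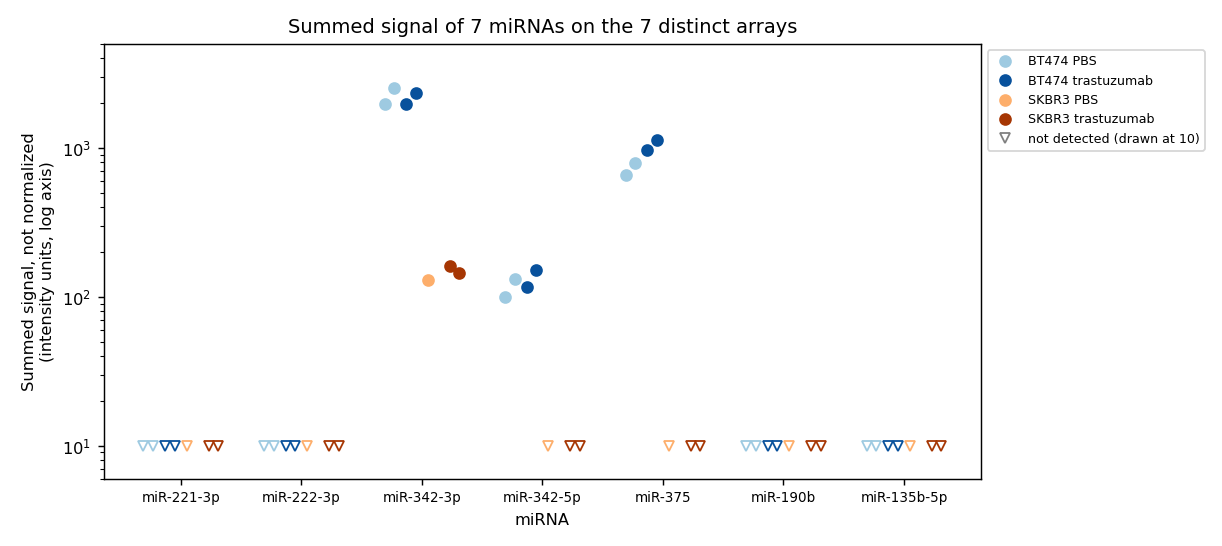
Summed signal of each miRNA (log axis, intensity units, not normalized) on each of the 7 distinct arrays, 1 point per array, with open triangles at 10 for arrays on which the miRNA was not detected. miR-342-3p, miR-342-5p and miR-375 sit higher on all 4 BT474 arrays than on any SKBR3 array, and the other miRNAs were detected nowhere.

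miR-342-3p, an arm of the miR-342 hairpin, was the only one of the 7 with a level in both lines. Its summed signal, before any normalization between arrays, was 1965 and 2516 on the BT474 PBS arrays, 1975 and 2358 on the BT474 trastuzumab arrays, 129 on the SKBR3 PBS array, and 162 and 144 on the SKBR3 trastuzumab arrays. The lines did not overlap. The software's own error of these signals was 8.38% to 8.50% of the signal in BT474 and 14.3% to 15.0% in SKBR3. After quantile normalization the log2 levels were 10.97, 11.02, 10.64 and 10.48 in BT474, in the same order of arrays, and 8.02, 7.62 and 7.70 in SKBR3. miR-342-3p was higher in BT474 by 2.93 on the log2 scale (SE 0.077), or 7.63-fold, with an adjusted p of 4.43e-06 in the limma fit with line and treatment as terms. The difference was 2.98 over the PBS arrays alone and 2.90 over the trastuzumab arrays alone. Because the RNA is of bulk cultures, a larger share of cells with the miRNA and more of it per cell cannot be told apart here.

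The size of this difference depended on the scale. It was 8.01-fold after scaling to the 75th percentile, 15.3-fold with no normalization and 4.75-fold with normexp background correction of the spots. The median difference over all miRNAs tested was 0.05, 0.21 and 0.77 on the log2 scale with quantile normalization, 75th percentile scaling and none, and the difference of miR-342-3p above that median was 2.88, 2.79 and 3.17. Its 2 probes gave like ratios. The brighter one had spot medians of 7371 to 9711 in BT474 and 600 to 785 in SKBR3, a ratio of 12.1, and the dimmer one 1754 to 2134 and 146 to 184, a ratio of 11.6, both without normalization.

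miR-342-5p, the other arm of the same hairpin, was detected in BT474 alone. Its summed signal was 100.0 and 132 on the BT474 PBS arrays and 117 and 150 on the BT474 trastuzumab arrays, with a software error of 15.5% to 18.3%, and it was not detected on any SKBR3 array. The lowest signal of any detected miRNA was 19.3 to 28.3 over the 7 arrays. The level of miR-342-5p in BT474 was at least 1.54-fold higher than in SKBR3 after quantile normalization. No p is given for this limit, since the fit holds SKBR3 at the floor of 10 on every array and so has no spread of its own there. The same limit was at least 2.75-fold after 75th percentile scaling and at least 5.05-fold with no normalization. Over the alternatives run, the fitted line difference of miR-342-5p was as low as 0.93 on the log2 scale, less than these latter limits. Each limit therefore holds only on its own scale. A limit sets the mean of the bright line against the mean, over the arrays of the dim line, of the lowest signal among detected miRNAs, or of the miRNA's own summed probe signals where these were higher. The brighter of its probes read 464 to 742 in BT474 and 34.5 to 66.4 in SKBR3. The other read 57.4 to 100.3 in BT474 and -15.0 to -0.81 in SKBR3, and only 1 of its 60 BT474 spots was flagged well above background, so that the detection rests on 1 probe.

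miR-375, a miRNA of endocrine and luminal epithelial cells, was also flagged as detected in BT474 alone. Its summed signal was 656 and 790 on the BT474 PBS arrays and 976 and 1127 on the BT474 trastuzumab arrays, with a software error of 9.42% to 9.82%, and it was not detected on the SKBR3 arrays. By the same calculation it was 10.6-fold higher in BT474 after quantile normalization and 14.5-fold after 75th percentile scaling, again with no p. On the SKBR3 arrays the signals of its brighter probe, before normalization, were 24.2 with PBS and 35.6 and 40.1 with trastuzumab. These lay above the lowest detected signals of those arrays, 19.3, 26.8 and 28.3. The folds are therefore estimates from its own signal and not lower bounds. Over the alternatives run, its fitted line difference was as low as 2.16 on the log2 scale, less than these folds. They therefore hold only on their own scales.

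For miR-375, the spots of 1 probe held signal in SKBR3 that the flag for the whole miRNA did not count. The brighter of its probes had spot medians of 2874 to 4933 in BT474 and of 117, 171 and 214 on the SKBR3 PBS array and the SKBR3 trastuzumab arrays. On those arrays 11, 13 and 14 of its 15 spots were flagged as positive and significant, or 73.3% (95% exact interval 44.9% to 92.2%), 86.7% (59.5% to 98.3%) and 93.3% (68.1% to 99.8%), against 42.6%, 33.7% and 32.6% of the negative control spots. These intervals cover counting error only, since the spots of an array share 1 sample. The other probe read 216 to 402 in BT474 and -20.3 to 1.48 in SKBR3. On the SKBR3 arrays 3, 2 and 1 of its 15 spots were flagged, a smaller share on each than of the negative control spots. The ratio of the lines at the brighter probe was 23.2 without normalization. The fold on that scale by the calculation used for the limits, which sums the probes, was 26.7. It lies above the ratio of the brighter probe and so is no lower bound for it.

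**Figure D2:**
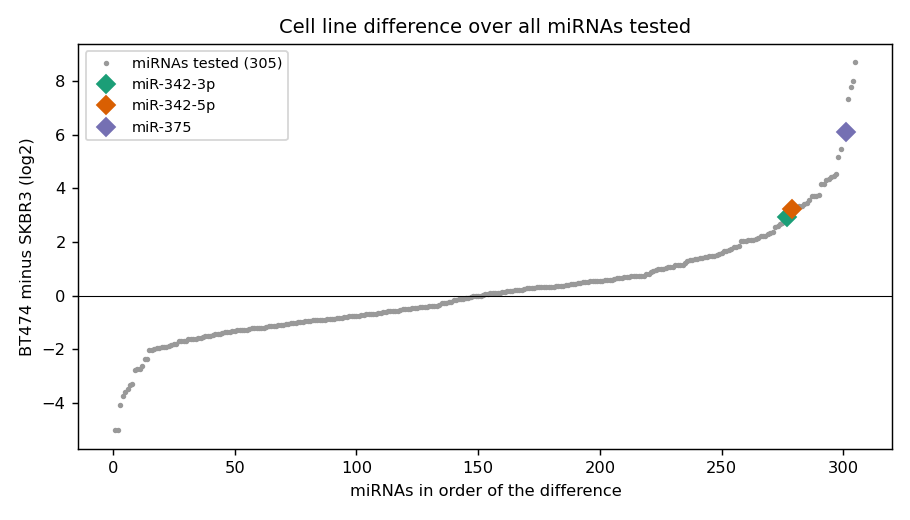
BT474 minus SKBR3 difference (log2, quantile normalized, floor of 10) of the 305 miRNAs tested, in order of the difference, with the 3 detected estrogen receptor linked miRNAs marked. miR-342-3p lies at 2.93. The points of miR-342-5p and miR-375, at 3.21 and 6.10, have SKBR3 at the floor, which sets their size and place in the order.

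miR-342-3p is thus the only member whose direction the fit could test. miR-342-5p and miR-375 entered it through their BT474 arrays alone, which fixed their direction, and the 4 others are not counted either way. Of the 305 miRNAs tested, 60.7% differed between the lines at an adjusted p under 0.05, with 28.5% higher and 32.1% lower in BT474, so that a difference as such was common. With no normalization 141 were higher and 14 lower, and with 75th percentile scaling 95 and 65. miR-342-3p was called higher in BT474 on all 3 scales. Of the 305, 27.9% had every BT474 array above every SKBR3 array, as miR-342-3p did, and 29.5% every BT474 array below. Detection on all BT474 arrays and no SKBR3 array, as for miR-342-5p and miR-375, held for 38 miRNAs (12.5%), and the reverse for 6 (1.97%).

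miR-221-3p and miR-222-3p, the repressors of ESR1 in the set, were not detected in either line, and their spots read near background. The brighter readings of miR-221-3p were at 1 probe, with spot medians of 58.8 to 77.1 in SKBR3 and -2.21 to 37.8 in BT474, and the other probe read 19.0 to 54.8 and 18.6 to 68.5. Medians of the negative control spots were 23.8 to 51.6 over the arrays. At the first probe the lines did not overlap, and 23 of 45 spots in SKBR3 and 9 of 60 in BT474 were flagged positive and significant, but none of either line was flagged well above background. The share of all probes without overlap was not counted, so that this order shows no difference by itself. Both probes of miR-222-3p read below the medians of the negative controls, from -78.5 to 16.6 in SKBR3 and from -67.8 to -3.46 in BT474.

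With normexp correction every spot keeps a positive value, so that undetected miRNAs can be tested too. By limma over all 2006 miRNAs on that scale, miR-221-3p differed by -0.22 (BT474 minus SKBR3, log2; adjusted p 0.0936) and miR-222-3p by -0.06 (adjusted p 0.634). Neither passed the threshold. The 5p arms of both hairpins were not detected on any array either.

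miR-190b, whose 4 probes have 7 or 8 spots each, was not detected either. Its spot medians ran from -43.1 to 113 in BT474 and from -26.3 to 62.2 in SKBR3, and no spot of either line was flagged well above background. At 1 of the 4 probes the lines did not overlap, with 41.6 to 113 in BT474 and -6.83 to 37.0 in SKBR3, and with 14 of 28 and 3 of 21 spots flagged positive and significant. How common this is among all probes was not counted, so that it shows no difference by itself. On BT474 PBS replicate 2 it was 6 of 7 of these spots (85.7%, 95% exact interval 42.1% to 99.6%), against 25.4% of the negative control spots. The other BT474 arrays had 28.6% on PBS replicate 1, and 28.6% and 57.1% with trastuzumab. Their intervals covered the control shares of 26.6%, 38.9% and 35.8%. The array named is thus the most extreme reading of this probe. The normexp difference over all its spots was -0.08 (adjusted p 0.502). Its relative hsa-miR-190a, identical over the first 15 bases, was not detected.

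miR-135b-5p was not detected, yet its normexp spot average differed between the lines. At 1 probe the spot medians were 54.1 to 88.7 in SKBR3 and -16.0 to 47.0 in BT474, without overlap, and at the other 37.3 to 48.3 and -7.48 to 44.0, with overlap. The share of all probes without overlap was not counted. Its normexp difference was -0.34 on the log2 scale (SE 0.066), higher in SKBR3, with an adjusted p of 0.00235 by limma. On that scale 14.4% of the 2006 miRNAs were called and 7.08% were called lower in BT474. Of its spots, 1 of 45 at each probe in SKBR3 and 1 of 60 at each probe in BT474 were well above background, so that the level in either line is at the edge of what the array measures. hsa-miR-135a-5p, which matches it at 22 of 23 positions, and hsa-miR-135b-3p were not detected.

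**Figure D3:**
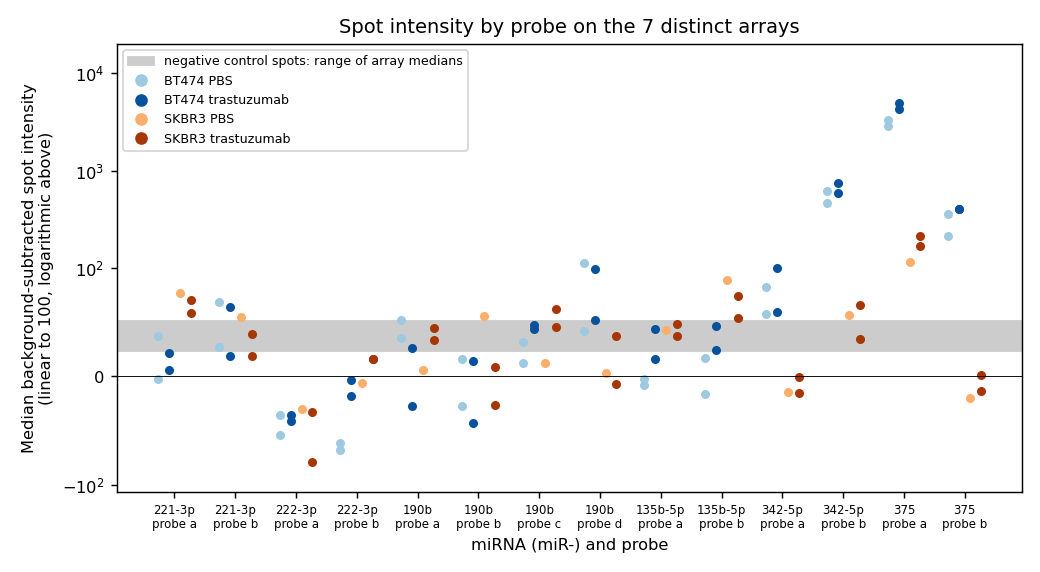
Median background-subtracted intensity of the spots of each probe (linear up to 100 and logarithmic above) on the 7 distinct arrays, for the 6 miRNAs that were not detected in at least 1 line. The grey band spans the array medians of the negative control spots, 23.8 to 51.6. The brighter miR-375 probe lies above the band on all SKBR3 arrays, at 117 to 214, and both miR-222-3p probes lie below it on all arrays.

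With trastuzumab none of the members with a summed signal to test, 3 in BT474 and 1 in SKBR3, passed the threshold of the study's methods, a fold change above 2 at an unadjusted p under 0.05. Among the deposited log2 values, normalized together with the copied array, the undetected miR-221-3p passed it in SKBR3, as given at the end. In BT474 the share called was 14% of 285 miRNAs tested, with 7.02% higher and 7.02% lower, and in SKBR3 11.5% of 227, with 7.93% higher and 3.52% lower. At an adjusted p under 0.05 alone these shares were 14.4% and 6.61%. On each line the comparison rests on few arrays, 2 against 2 in BT474 and 2 against 1 in SKBR3.

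In BT474, miR-375 was higher on both trastuzumab arrays than on both PBS arrays, with log2 levels of 9.60 and 9.56 against 9.16 and 9.21. Such an order held for 30.5% of the miRNAs tested. The difference was 0.40 on the log2 scale (SE 0.059), or 1.32-fold, with an unadjusted p of 0.00747 and an adjusted p of 0.0507 (limma), which ran from 0.0152 to 0.716 over 12 alternatives. Above the median of all miRNAs tested it was 0.40 with quantile normalization, 0.31 with 75th percentile scaling and 0.32 with none. Those medians were 0.00, -0.22 and 0.22, and the change before subtracting them was 0.40, 0.09 and 0.54.

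miR-342-3p went the other way in BT474, from 10.97 and 11.02 with PBS to 10.64 and 10.48 with trastuzumab, a difference of -0.44 (SE 0.086, unadjusted p 0.0165, adjusted p 0.0813, limma). That adjusted p ran from 0.0331 to 0.937 over the 12 alternatives. Below the median of all miRNAs it was -0.44, -0.27 and -0.26 on the 3 scales, and with no normalization the difference before subtracting the median was -0.04. miR-342-5p stood at 6.31 and 6.57 with PBS and at 6.66 and 6.54 with trastuzumab, with overlap, and its difference was 0.16 (SE 0.13, adjusted p 0.463). It was -0.24 under 75th percentile scaling. The arms of the hairpin are read by different probes, and whether their changes differ was not tested.

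In SKBR3 only miR-342-3p had a summed signal to test. It was at 8.02 on the PBS array and at 7.62 and 7.70 on the trastuzumab arrays, a difference of -0.36 (SE 0.063, unadjusted p 0.057, adjusted p 0.166, limma). It turned to 0.07 with 75th percentile scaling and to 0.24 with no normalization. The median of all miRNAs was -0.09, 0.21 and 0.38 on the 3 scales, and below it miR-342-3p was -0.27, -0.14 and -0.14. miR-342-5p and miR-375 were at the floor on all SKBR3 arrays. On the normexp scale, which keeps undetected miRNAs, the SKBR3 difference was 0.066 for miR-375 (unadjusted p 0.541, adjusted p 0.897, limma) and -0.0056 for miR-342-5p (adjusted p 0.990).

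The difference in response between the lines passed its threshold for miR-375, at 0.40 (SE 0.070, adjusted p 0.0387, limma), where 16.1% of 305 miRNAs passed, 9.84% with a positive and 6.23% with a negative difference. SKBR3 stood at the floor on every array, so that this value is the BT474 change alone. The floored arrays have no spread, so that the SE and p do not test the response of SKBR3. Without normalization, the brighter miR-375 probe read 117 with PBS and 171 and 214 with trastuzumab in SKBR3. In BT474 it read 2874 and 3300 with PBS and 4285 and 4933 with trastuzumab, so that the trastuzumab readings were the higher ones in both lines. On that scale the median change of all miRNAs tested was also positive, 0.22 in BT474 and 0.38 in SKBR3 (log2). The share of all probes with higher trastuzumab readings in both lines was not counted, and SKBR3 has 1 PBS array. With normexp, which uses the spots of miR-375, the difference in response was 0.16 (adjusted p 0.704, limma). The adjusted p rose to 0.555 with 75th percentile scaling, 0.383 with no normalization and 0.128 with the replicate number as a block, and ran from 0.0246 to 0.704 over 13 alternatives. For miR-342-3p the difference in response was -0.08 (adjusted p 0.704, limma) and for miR-342-5p 0.16 (adjusted p 0.601, limma). The value of miR-342-5p is likewise the BT474 change alone, with SKBR3 at the floor.

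**Figure D4:**
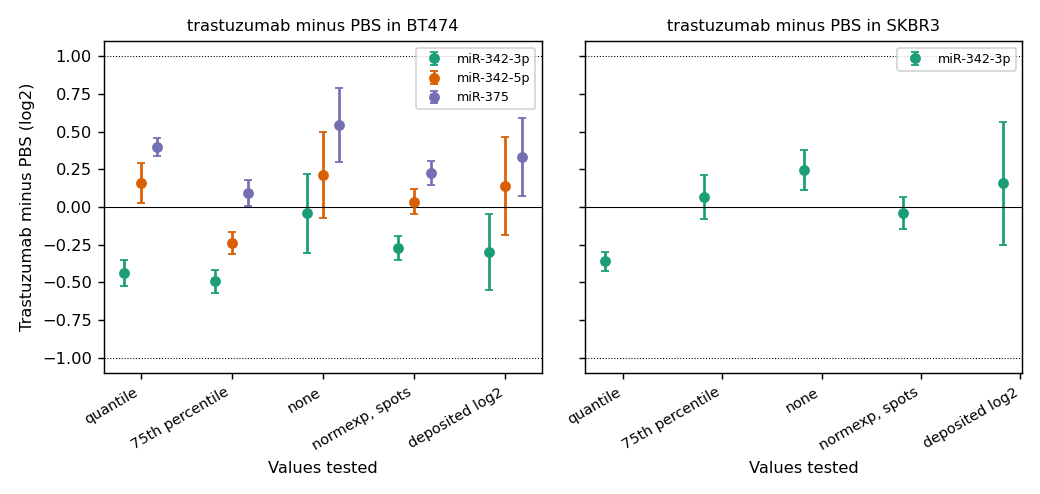
Trastuzumab minus PBS (log2) in BT474 and SKBR3 for the members that could be tested, with 5 kinds of values: quantile normalized, scaled to the 75th percentile, not normalized, normexp on the spots, and the deposited log2 values. Points are limma estimates, bars are 1 SE, and the dotted lines mark a fold change of 2. No point lies past a dotted line, and miR-342-5p in BT474 and miR-342-3p in SKBR3 take either sign.

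Other miRNAs tied to the receptor were counted from lists. Over all 305 miRNAs tested, 28.5% were called higher in BT474 and 32.1% lower. Of 8 reported to act on the ESR1 message, 6 were detected, 2 were higher in BT474 and 1 lower, with a median difference of -0.00 beside 0.05 over all miRNAs. hsa-miR-193b-3p was higher by 1.29 and hsa-miR-20b-5p by 0.28, and hsa-miR-22-3p was lower, at -0.73 on the log2 scale. Of 6 tied to estrogen response or to receptor-positive tumours, 4 were detected and 2 were higher, hsa-miR-21-5p by 0.81 and hsa-miR-149-5p by 0.63, with a median of 0.41. Of 5 tied to receptor-negative tumours, 1 was detected, hsa-miR-17-5p, and it was higher in BT474 by 0.52. With trastuzumab none of these 3 lists had a called miRNA in either line, where 14% of all miRNAs tested were called in BT474 and 11.5% in SKBR3.

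The epithelial miRNAs hsa-miR-200b-3p and hsa-miR-429 were detected on all BT474 arrays and no SKBR3 array, like miR-375, while hsa-miR-200c-3p was lower in BT474 at -0.58 and hsa-miR-141-3p differed by 0.05 (adjusted p 0.643). hsa-miR-205-5p of basal epithelium was detected on all BT474 arrays and no SKBR3 array, at 111 to 270. It was the only called miRNA of its list in either comparison, and it was higher with trastuzumab in BT474, by 1.11. The part of these miRNAs in the results above was not tested.

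The patterns most like those of the 3 detected members were found among 302 other miRNAs, as the smallest root mean square difference of centred log2 levels over the 7 arrays. hsa-miR-21-3p (0.19) and hsa-miR-196a-5p (0.22) came closest to miR-342-3p. hsa-miR-575 (0.11) and hsa-miR-532-5p (0.15), both detected in BT474 alone, came closest to miR-342-5p. hsa-miR-454-3p (0.081) came closest to miR-375, with summed signals of 669 and 797 with PBS and 867 and 1044 with trastuzumab in BT474 and no detection in SKBR3, and hsa-miR-301a-3p (0.36) followed.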

How the data were processed

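Per the labels, total RNA carried 1 dye, Cy3, and each array held 1 sample. The authors deposited scanner output from Agilent Feature Extraction 11.5.1.1: spot intensity, a summed intensity per miRNA and flags, not normalized between arrays. They also deposited log2 values per probe, quantile normalized within each line by BRB Array Tools, with the copied array among the SKBR3 columns. These served as an alternative for treatment only.

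Summed intensities of the 7 distinct arrays were quantile normalized, floored at 10 and log2 transformed. limma 3.58.1 (R 4.3.3) was used as design: line plus treatment over 7 arrays (adjusted p under 0.05), treatment within each line (unadjusted p under 0.05 and fold above 2) and their interaction. A miRNA whose values all lay at the floor in a fit was left untested. p-values were adjusted by Benjamini-Hochberg over all miRNAs tested. Normexp used an offset of 50. The fits were tested on simulated data. Named miRNAs were the 7, list miRNAs that were called or are partner arms or seed relatives, and the 2 closest patterns per detected member. Members and lists were chosen with earlier results of these data known. Few arrays limit the precision. Tables were made with pandas 2.3.3.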

Additional observations from a re-analysis of the deposited data

Results flagged for a closer look

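The interaction of line and treatment for hsa-miR-375, 0.40 on the log2 scale, passed the adjusted threshold, with SKBR3 at the floor on every array, so that the value holds the BT474 change alone. Its p does not test the response of SKBR3.

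The file labelled SKBR3 PBS replicate 1 held hsa-miR-342-5p at 100.0 and hsa-miR-375 at 656, both detected, and neither was detected on the other SKBR3 arrays. It is identical to BT474 PBS replicate 1.

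In spot data outside the summed signals, hsa-miR-135b-5p differed by -0.34 (BT474 minus SKBR3, log2) without being detected in either line. On each SKBR3 array the exact intervals of its flagged spots covered the share of the negative controls. The brighter hsa-miR-375 probe had 38 of 45 SKBR3 spots flagged positive and significant, a larger share on each array than of the negative control spots. Its other probe had 6 of 45, a smaller share on each array.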

How the results depend on the processing

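The fitted line difference of miR-342-3p kept its direction in all 17 alternatives run and passed the threshold in 16. For miR-342-5p and miR-375 the floor in SKBR3 fixes the direction and leaves no spread there. Their passes on floored values are therefore no further support. Over the 3 detected members together the direction held in all 51 alternatives and the threshold was passed in 48. The exceptions were with the copied array kept under its label: 2.19 for miR-342-3p, 2.48 for miR-342-5p and 4.61 for miR-375, each with an adjusted p of 0.0781, when 0 miRNAs were called by limma and 147 had an unadjusted p under 0.05. Normexp called 289 miRNAs between the lines, and 2 in BT474 and 13 in SKBR3 with trastuzumab. The deposited values called 85 in BT474 and 119 in SKBR3, and the copied array 14 in SKBR3, against 40 and 26. Among the deposited values hsa-miR-221-3p, not detected, differed by -1.54 in SKBR3 (unadjusted p 0.0104, adjusted p 0.675).

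The treatment difference turned for miR-342-5p in BT474 under 75th percentile scaling (-0.24), and for miR-342-3p in SKBR3 under that scaling (0.066), without normalization (0.24) and in the deposited values (0.16). Calls in BT474 were 20 higher and 20 lower, 13 and 28 with 75th percentile scaling, and 26 and 13 with none. In SKBR3 they were 18 and 8, 31 and 8, and 31 and 6.

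For the difference in response, 49 miRNAs were called, 25 without normalization, 91 with normexp, 5 with the copied array and 29 to 74 when an array was left out (74 without BT474 trastuzumab replicate 2, 29 without SKBR3 trastuzumab replicate 1). miR-375 missed the threshold at 0.092 with 75th percentile scaling, 0.54 without normalization, 0.16 with normexp, 0.40 with detection on at least 2 arrays and 3.31 with the copied array. Leaving out an array gave 0.37 to 0.45, and it missed the threshold without BT474 trastuzumab replicate 1 or either SKBR3 trastuzumab array. miR-342-5p turned with 75th percentile scaling (-0.24) and miR-342-3p with the copied array (1.40).

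Same-numbered BT474 arrays share a number and a slide column, column 2 for replicate 1 and column 1 for replicate 2. After quantile normalization their deviations from the group means correlated at r = 0.10 across 285 miRNAs (2 pairs). That normalization removes shifts of a whole array, so that r cannot show them. With the replicate block, 22 miRNAs were called for the difference in response and miR-375 stood at 0.40 without passing, 171 miRNAs were called between the lines and 32 in BT474. No paired analysis was possible for SKBR3 because it has 1 distinct PBS array, which also could not be left out there or in the interaction. The line calls held within each treatment, and the smallest signals detected, 19.3 to 28.3, limit what can be said of the 4 undetected members.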
